A study of Mus musculus with 12 samples.

Results

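Antioxidant defence in the retina was followed through 10 genes: Nfe2l2, Gclc, Gclm, Gsr, Gpx1, Gpx4, Sod1, Sod2, Cat and Txnrd1. They were chosen by gene symbol, each symbol matched 1 entry, and they are 10 of the 56748 genes in the deposited table. Polyribosome-bound RNA from rods (Rod-TRAP, called rods here) and total retinal RNA of the lysate (called retina) were sequenced, with 3 libraries in each of 4 groups. Control mice, labelled Pkm2_Rodhet, carried Ribo-Tag, the i75-Rod-Cre driver and 1 floxed Pkm2 allele. Pkm2_Rodko mice carried the same Ribo-Tag and Cre with both Pkm2 alleles floxed, and are called Rodko.

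All 12 libraries therefore came from Cre-positive, Ribo-Tag mice, and the controls could lose 1 Pkm2 allele in the cells that express Cre. The Cre is driven by the rhodopsin promoter, so deletion and ribosome tagging were both set in rods. The age is given as 2 weeks in the series text and as 2 months in the methods. All mice were perfused with cycloheximide, which holds ribosomes on RNA, and the tissue was flash-frozen. Nothing in the labels says whether a library is 1 mouse or a pool, so p-values measure the spread between these libraries.

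Cells make superoxide as a by-product of respiration, and superoxide dismutases turn it into hydrogen peroxide. Catalase and the glutathione and thioredoxin systems remove peroxides, and both of the latter draw on NADPH to be restored. Photoreceptor outer segments are rich in polyunsaturated lipids and are exposed to light and high oxygen, which makes them prone to lipid peroxidation. NRF2, encoded by Nfe2l2, is a transcription factor that binds the antioxidant response element and is known to drive many of these genes.

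The antioxidant response element core, TGACNNNGC, was searched on both strands in RefSeq promoter windows (GRCm38.p6) from 250 bases before to 50 bases after each listed gene start. Windows were at hand for 8 of the 10 genes, and 4 of these 8 held the core in at least 1 window, against 14.0% of the 27025 genes with a window. Some genes have several windows. Counted by window, 4 of 13 (30.8%) held the core, against 12.4% of all 32851 windows. Gclc and Gsr had no window. The core and 10 bases on each side, where the window reaches, are printed below on the strand of the gene. The match is in capitals. NRF2 is known to bind such a core, but its binding at these places was not tested. A match is only a match of letters.
Nfe2l2, chr2:75704885-75704913, minus strand: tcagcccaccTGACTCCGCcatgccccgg
Gclm, chr3:122245413-122245441, plus strand: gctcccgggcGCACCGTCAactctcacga
Sod1, chr16:90220696-90220724, plus strand: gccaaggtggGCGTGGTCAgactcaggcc
Txnrd1, chr10:82859104-82859132, plus strand: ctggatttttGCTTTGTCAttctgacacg
The Nfe2l2 match reads as the core itself and the other 3 as its reverse complement. The Txnrd1 match lies in 1 of its 3 windows. No window of Cat, Gpx1, Gpx4 or Sod2 held these letters.

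Depth was 13458890 to 22790074 reads per library. The authors scaled each fraction alone, so levels of rods and retina were put on a common scale by trimmed mean of M-values (TMM) scaling of the recovered reads to the mean library, and are called scaled reads. The targeted gene, Pkm, stood at 65101 to 70318 scaled reads in control rods and 28253 to 30486 in Rodko rods, a log2 difference of -1.20 (SE 0.0838, limma adjusted p = 5.36e-05). The Pkm entry counts the Pkm1 and Pkm2 isoforms together, and they were not measured apart here. All 12 rod markers were higher in rods than in retina (median log2 difference 1.95 in control mice), and all 11 Müller glia markers were lower (median -2.90). In bulk RNA of this kind, fewer cells of a type and less RNA per cell cannot be told apart.

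Levels were compared between genes only per kilobase of exon (GENCODE vM21 union exons). In control rods Gpx4 led with 6720 ± 1041 scaled reads per kilobase (SD, n = 3). Sod1 followed with 395 ± 37.8, Sod2 with 328 ± 15.3 and Gclc with 221 ± 24.6. Gsr at 194 ± 9.25, Nfe2l2 at 189 ± 15.5 and Cat at 177 ± 13.7 came next, and the ranges of Gclc and Gsr, of Gsr and Nfe2l2, and of Nfe2l2 and Cat overlapped.
Txnrd1 at 139 ± 6.83, Gclm at 59.6 ± 0.673 and Gpx1 at 22.1 ± 2.46 closed the order, each apart from its neighbours. By mean level Gpx4, Sod1, Sod2 and Gclc came first in all 4 groups and Txnrd1, Gclm and Gpx1 last. Txnrd1 overlapped the gene above it in the other 3 groups, Nfe2l2 in Rodko rods and Gsr in both retina groups. Sod1 and Sod2 overlapped in Rodko rods. The per-kilobase level depends on the annotated length, 10008 bases of union exon for Sod2, and exon use was not measured. The annotation used in counting is not given in the sources used here, so it was not tested whether the few reads of Gpx1 reflect its level.

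**Figure D1:**
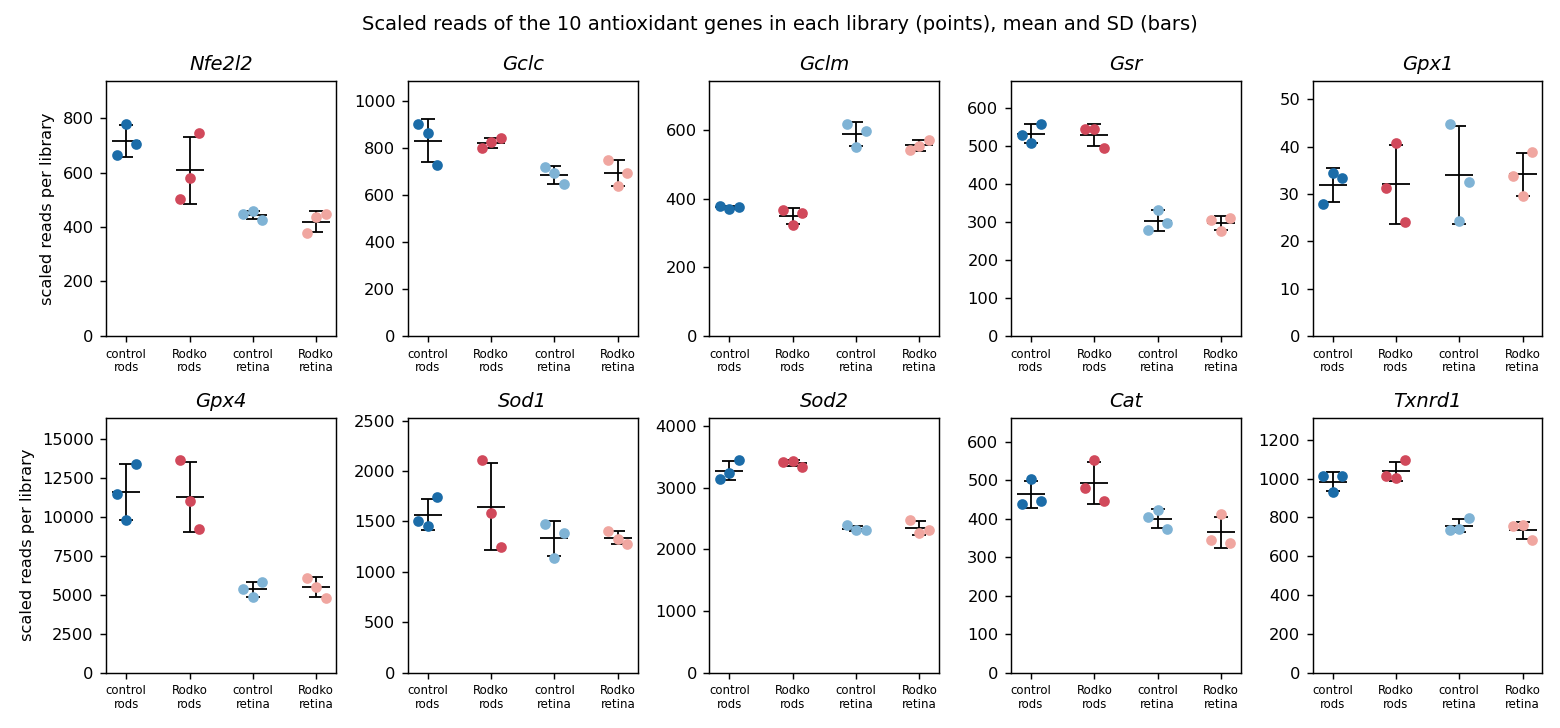
Scaled reads of each of the 10 genes (y axis from 0, one scale per panel) in the 4 groups (x axis), with 1 point per library and the mean and SD of 3 libraries as bars. Gpx4, Gsr, Nfe2l2, Sod2, Cat and Txnrd1 sit higher on this TMM scale in every rod library than in every retina library, and Gclm sits lower.

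Rods were compared with retina in control and in Rodko mice with limma on log2(scaled reads + 1) over the 12 libraries. Rod values come from polyribosome-bound RNA, and retina values from total RNA of a lysate that holds the rods too. Cell type, ribosome binding and pulldown recovery can therefore not be told apart in these differences. Of all genes tested, 23.5% were called higher in control rods and 35.5% lower (adjusted p under 0.05), and the median gene stood at -0.37. Of the 10 genes, 6 were called higher (Gpx4, Gsr, Nfe2l2, Sod2, Txnrd1 and Gclc) and 1 lower (Gclm), with a median of 0.33. In Rodko mice 23.9% of all genes were called higher and 35.1% lower, with a median of -0.32. There the same 6 genes and Cat were called higher and Gclm again lower, with a median of 0.47.

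The direction of several of these calls depends on the scale. When libraries were scaled by total reads instead, all genes moved down (median -0.76 in control and -0.74 in Rodko mice) and the split of calls went from 6001 higher and 9083 lower to 2184 higher and 12706 lower in control mice. In Rodko mice it went from 6108 and 8992 to 2198 and 12648. On that scale 2 of the 10 genes, Gpx4 and Gsr, were called higher in either genotype. Gclm and Gclc were called lower in both genotypes and Cat in control mice. On the deposited values, scaled within each fraction, Gpx4 alone was called higher, and 1942 genes were called higher and 13144 lower in control mice. Gpx4 was called higher, and Gclm lower, under all 20 alternatives tried in each genotype. The order of the 10 genes depends less on scale, since a scaling moves all of them by nearly the same amount. Gpx4 and Gsr came first and Gclm last under every alternative that used all 12 libraries.

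**Figure D2:**
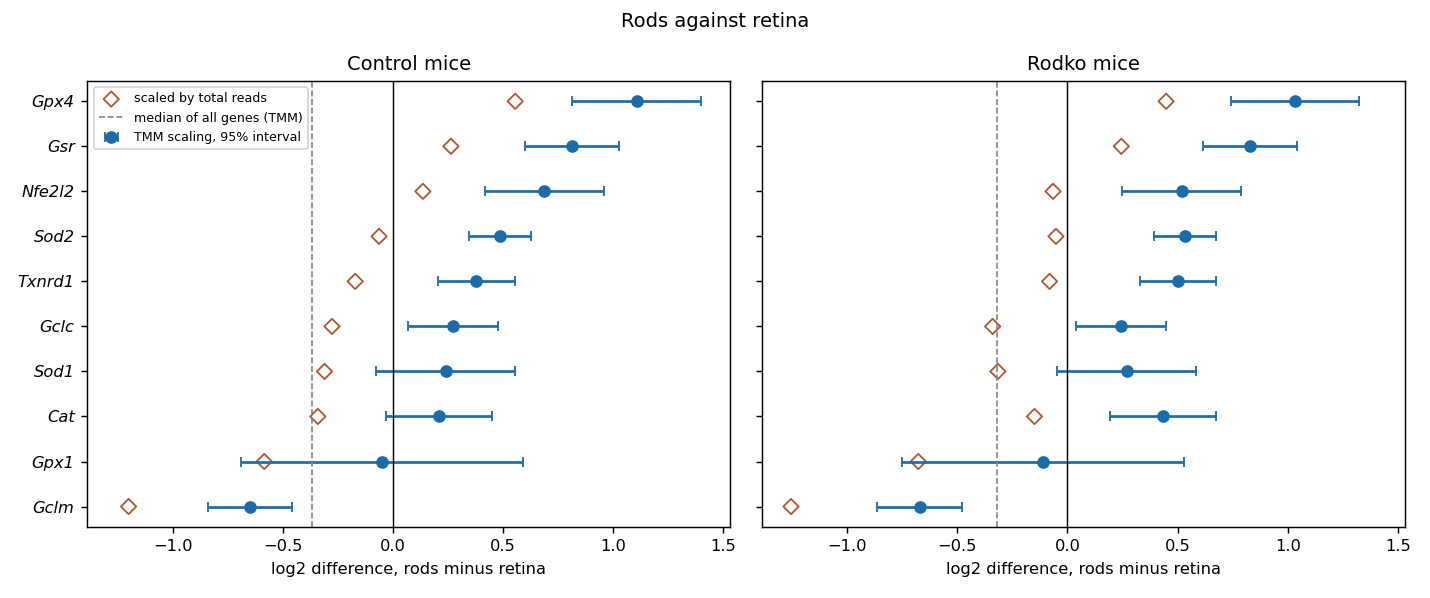
Log2 difference of rods minus retina (x axis) for each gene (y axis) in control (left) and Rodko mice (right). Filled points are TMM-scaled with 95% intervals from limma, open diamonds are scaled by total reads, and the dashed line is the median of all genes under TMM. Gpx4 and Gsr are right of 0 on both scales and Gclm left of 0, while Sod2, Txnrd1, Gclc, Sod1, Cat and, in Rodko mice, Nfe2l2 change side.

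The NRF2 gene itself, Nfe2l2, had 665, 781 and 706 scaled reads in control rods and 446, 459.7 and 428 in control retina. Every rod library was above every retina library. The log2 difference was 0.69 (SE 0.127, adjusted p = 0.000235) in control mice. In Rodko mice, with 502, 580.0 and 744 in rods and 377, 438 and 446 in retina, it was 0.52 (adjusted p = 0.00231). By total reads it was not called in either genotype, at 0.14 in control and -0.07 in Rodko mice.

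Glutamate-cysteine ligase, the rate-limiting enzyme of glutathione synthesis, consists of a catalytic subunit, encoded by Gclc, and a modifier subunit, encoded by Gclm, that raises its activity. Gclc had 905, 863 and 728 scaled reads in control rods against 719, 694 and 646 in control retina. In Rodko mice it had 799, 827 and 842 in rods and 751, 640.3 and 696 in retina. The rod and retina ranges did not overlap within a genotype, although the lowest control rod library lay below the highest Rodko retina library. The TMM differences were small, 0.27 (adjusted p = 0.0225) and 0.24 (adjusted p = 0.0385). They fell to -0.28 and -0.34 by total reads.
The Gclc call was also lost when single libraries were left out. In control mice the adjusted p was 0.0910 without control rods replicate 1, 0.0754 without control rods replicate 2 and 0.0818 without control retina replicate 3. In Rodko mice it was 0.0633, 0.0705 and 0.0739 without Rodko rods replicates 1, 2 and 3, and 0.151 and 0.0751 without Rodko retina replicates 2 and 3.

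Gclm went the other way. It had 378, 370.3 and 377 scaled reads in control rods and 620.1, 552 and 597 in control retina, a log2 difference of -0.65 (SE 0.0897, adjusted p = 1.33e-05). Rodko mice gave 367, 323 and 359 in rods and 542, 556 and 573 in retina, a difference of -0.67 (adjusted p = 8.71e-06). Each of the 6 rod values fell short of each of the 6 retina values. Of all genes tested, 43.8% in control and 42.5% in Rodko mice had a lower difference than Gclm. It lay -0.28 and -0.35 from the median gene, so its place was not far from that of a typical gene. Gclm overlaps exons of the antisense gene Gm17494, to which 994 reads were assigned over the 12 libraries, and whether the counting used strand is not given in the sources used here.

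The ratio of Gclm to Gclc reads within a library needs no scaling, and was chosen after the values were seen. In control rods there were 0.418, 0.429 and 0.517 Gclm reads per Gclc read, and in control retina 0.862, 0.796 and 0.925. In Rodko rods there were 0.459, 0.391 and 0.427, and in Rodko retina 0.721, 0.868 and 0.824. No rod library reached the lowest retina library. Paired by library number within genotype, the log2 ratio was lower in rods in 6 of 6 pairs, by a mean of -0.92 ± 0.173 (SD), with a two-sided exact permutation p = 0.03125, the smallest that 6 pairs allow. The ratio joins a gene already called higher in rods with one already called lower, so this p-value is not separate support. Ratios of other pairs of genes were not examined. The ratio differed little between genotypes, by -0.09 on the log2 scale in rods (two-sided exact permutation p = 0.6, n = 3 against 3) and -0.10 in retina (p = 0.5, exact permutation), where p cannot go below 0.1.

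**Figure D3:**
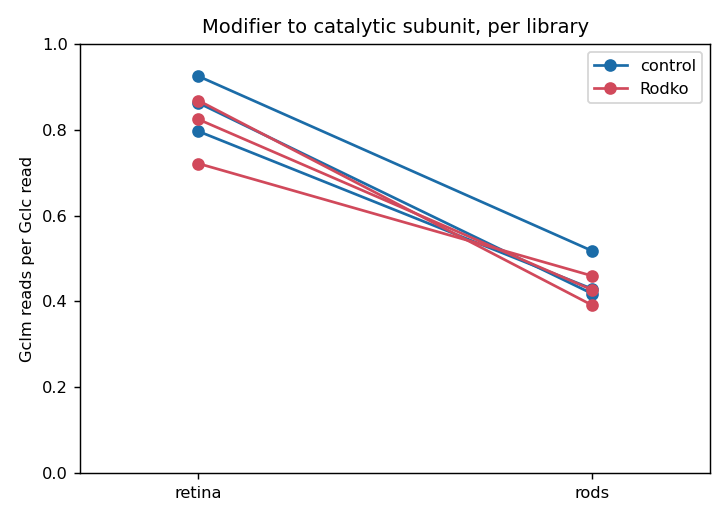
Gclm reads per Gclc read (y axis from 0) in retina and rods (x axis), with 1 line per pair of libraries of the same genotype and number, control blue and Rodko red. All 6 lines fall from retina (0.721 to 0.925) to rods (0.391 to 0.517).

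Gsr encodes glutathione reductase, which restores reduced glutathione with NADPH. It had 530.5, 509 and 559.7 scaled reads in control rods and 279, 333 and 299 in control retina, a log2 difference of 0.81 (SE 0.1003, adjusted p = 4.10e-06). The Rodko values were 545, 546 and 496 in rods and 306, 276 and 311 in retina, a difference of 0.83 (adjusted p = 3.01e-06). The lowest of the 6 rod libraries was well above the highest retina library. By total reads the differences were 0.26 and 0.24, still called. On the values scaled within each fraction they were 0.22 (adjusted p = 0.0787) and 0.23 (adjusted p = 0.0710).

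Gpx4 encodes the selenium-containing glutathione peroxidase that reduces lipid hydroperoxides in membranes and is known to guard cells against ferroptosis. It had 11495, 9837 and 13424 scaled reads in control rods and 5386, 4867 and 5808 in control retina, 2.15-fold higher in rods (log2 difference 1.11, SE 0.137, adjusted p = 4.31e-06). The Rodko values were 13654, 11044 and 9211 in rods and 6103, 5520.3 and 4815 in retina, 2.05-fold higher (adjusted p = 8.15e-06). Each of the 6 rod values exceeded each of the 6 retina values. By total reads the log2 differences were 0.56 and 0.45.
The pseudogene entry Gpx4-ps2 matches the Gpx4 transcript at 99.7% of 762 bases and held 26.7% to 30.3% as many reads as Gpx4 in every library, so reads of the pair cannot be assigned with certainty. With the pseudogene entries summed into Gpx4, the differences were 1.12 in control and 1.04 in Rodko mice.

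Gpx1 encodes the cytosolic glutathione peroxidase, also a selenoprotein. It had 27.8, 34.4 and 33.4 scaled reads in control rods, 31.2, 40.7 and 24.1 in Rodko rods, 44.9, 24.3 and 32.6 in control retina and 33.8, 29.7 and 38.9 in Rodko retina. These rest on 17 to 54 reads per library and overlap throughout, and reads lost to an overlapping gene in the authors' annotation were not checked. The rods to retina difference was -0.05 (95% interval -0.69 to 0.59) in control mice and -0.11 (-0.75 to 0.53) in Rodko mice, so differences inside these intervals remain compatible with these reads.

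Sod2, the mitochondrial manganese superoxide dismutase, had 3148, 3246 and 3449 scaled reads in control rods and 2390.0, 2317 and 2308 in control retina. Rodko mice gave 3417, 3442 and 3345 in rods and 2482, 2259 and 2318 in retina. It had tight replicates, with rods above retina throughout, and log2 differences of 0.49 (SE 0.0662, adjusted p = 1.12e-05) and 0.53 (adjusted p = 3.95e-06). By total reads these were -0.06 and -0.05 and not called.

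Sod1, the cytosolic copper and zinc superoxide dismutase, had 1508, 1456 and 1738 scaled reads in control rods and 1474, 1134 and 1386 in control retina. The Rodko values were 2107, 1586 and 1244 in rods and 1405, 1326 and 1276 in retina. The ranges of rods and retina overlapped in both genotypes, and the differences of 0.24 (adjusted p = 0.177) and 0.27 (adjusted p = 0.132) were not called. With libraries of the same genotype and number as pairs (replicate block), both were called (adjusted p = 0.0426 and 0.0245). Without Rodko rods replicate 3 the Rodko difference was 0.46 (adjusted p = 0.0106), and without Rodko rods replicate 1 it was 0.05 (adjusted p = 0.736). By total reads the Sod1 differences were -0.31 and -0.32, not called. The pseudogene entry Gm8566, 97.8% identical over 465 bases, held 4.04% as many reads as Sod1 over the 12 libraries.

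Cat, which encodes the peroxisomal enzyme catalase, had 437, 503 and 447 scaled reads in control rods and 405, 421 and 373 in control retina, a log2 difference of 0.21 that was not called (adjusted p = 0.122). Rodko mice gave 479, 551 and 447 in rods and 345, 411 and 337 in retina, a difference of 0.43 (SE 0.112, adjusted p = 0.00347). The call in 1 genotype does not show a difference between genotypes, and the test of that difference gave 0.23 (unadjusted p = 0.176, adjusted p = 0.978, limma). By total reads the Cat differences were -0.34 in control mice, called lower, and -0.15 in Rodko mice.

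Txnrd1, the cytosolic thioredoxin reductase, a selenoprotein, had 1012, 928 and 1013 scaled reads in control rods and 735, 739 and 797 in control retina. The Rodko values were 1014, 1005 and 1095 in rods and 755, 760.5 and 681 in retina. Rods were above retina in every library, with log2 differences of 0.38 (SE 0.0814, adjusted p = 0.000855) and 0.50 (adjusted p = 6.24e-05). By total reads the differences turned to -0.17 and -0.08, neither called.

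Against the cell type markers, each of the 10 genes lay between the rod and the Müller glia lists in both genotypes. That interval is wide, and the share of all genes inside it was not counted, so this is a description only. The lowest rod marker difference was 1.73 in control and 1.84 in Rodko mice, above Gpx4 at 1.11 and 1.03. The highest Müller marker difference was -2.51 in control and -2.69 in Rodko mice, below Gclm at -0.65 and -0.67. Other lists came closer to the 10 genes. Gclm lay within the range of the cone markers, -0.77 to -0.46 in control and -0.94 to -0.50 in Rodko mice. The highest bipolar marker stood at 0.66 in control and 0.76 in Rodko mice. Summed Müller marker reads ranged from 11489 to 14549.6 in control rods and from 82657 to 95232 in control retina, with no marker at 0. Their part in the lower Gclm of rods was not tested.

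Loss of Pkm2 in rods was then set against the level of the same genes, with limma on log2(deposited value + 1) within each fraction. None of the 10 genes was called in rods, where 4 of 20658 genes (0.0194%) were called, or in retina, where 1 of 25590 (0.00391%) was. None had an unadjusted p under 0.05 in either fraction, and neither edgeR nor DESeq2 called any. Leaving Gpx1 aside, no 95% interval in rods reached beyond a log2 difference of -0.55 or 0.38, and none in retina beyond -0.35 or 0.25. The Pkm difference measured in the same libraries was -1.20 in rods and -0.65 in retina.

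**Figure D4:**
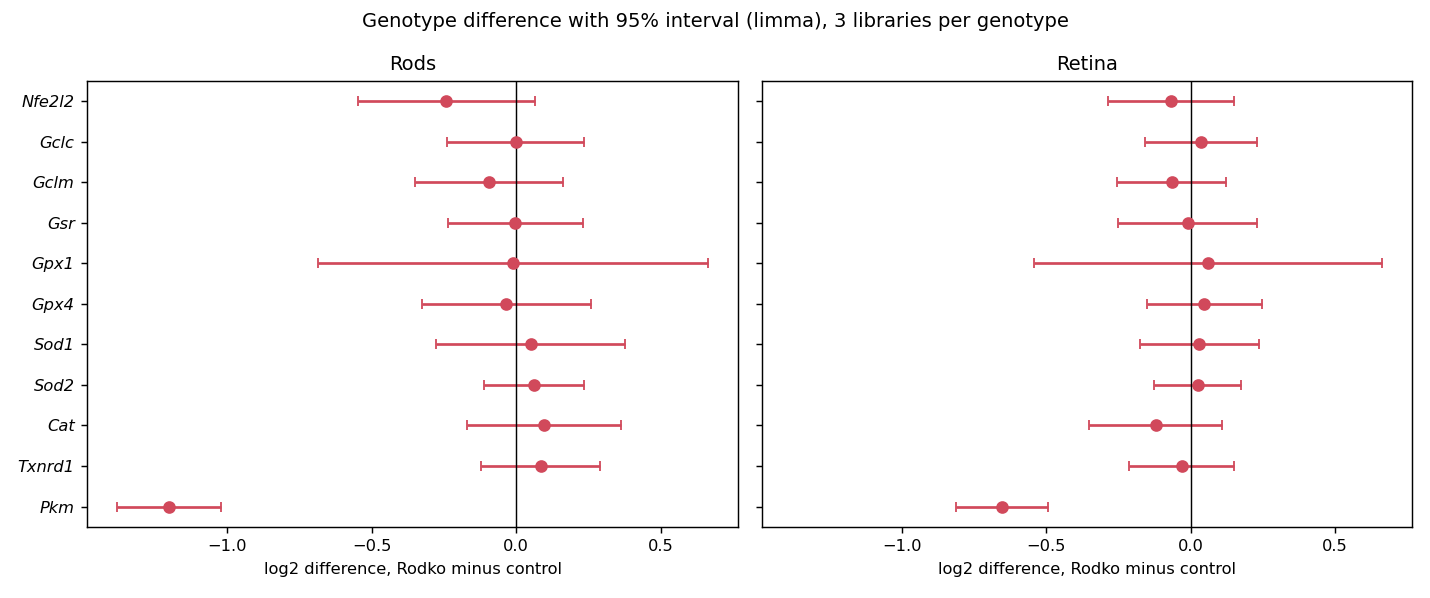
Log2 difference of Rodko minus control (x axis) with 95% intervals from limma for each gene and for Pkm (y axis) in rods (left) and retina (right), 3 libraries per genotype. All 10 intervals in either panel include 0, and those of Pkm do not.

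The genotype difference in rods furthest from 0 was that of Nfe2l2, at -0.24 (SE 0.142, 95% interval -0.55 to 0.06, unadjusted p = 0.110, adjusted p = 0.932). Its Rodko rod libraries, 502, 580.0 and 744, overlapped the control libraries, 665, 781 and 706, and the highest Rodko library exceeded 2 of the 3 control libraries. In retina the Nfe2l2 difference was -0.07. Over the 15 alternatives the rod difference ranged from -0.40 to -0.11, with adjusted p from 0.638 to 0.999.

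Of the enzymes of glutathione synthesis and recycling, Gclc and Gsr each differed by -0.00 in rods (95% intervals -0.24 to 0.24 and -0.24 to 0.23). Gclm differed by -0.09 (adjusted p = 0.942). Its 3 Rodko rod libraries lay below its 3 control rod libraries, the only separation of genotypes among the 10 genes in either fraction. Such separation was found for 9.89% of all genes in rods and 9.29% in retina, so 1 of 10 in rods and 0 of 10 in retina is near what all genes gave.

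Gpx4 differed by -0.03 and Gpx1 by -0.01 in rods, the latter with an interval of -0.69 to 0.67. Sod1 differed by 0.05, Sod2 by 0.06, Txnrd1 by 0.08 and Cat by 0.10. In retina the values furthest from 0 were -0.12 for Cat and -0.07 for Gclm and Nfe2l2. The median over the 10 genes was -0.00 in rods and 0.01 in retina, beside 0.01 and -0.00 for all genes.

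The Rodko rod libraries were not alike in these genes. Replicate 1 was the highest of the 3 in Gpx4 (13654) and Sod1 (2107) and the lowest in Nfe2l2 (502), and replicate 3 was the reverse in all of these. Without Rodko rods replicate 1 the genotype differences were -0.17 for Gpx4, -0.14 for Sod1 and -0.11 for Nfe2l2, none of them called. Markers of several other cell types also had lower values in Rodko than in control rods, none of them called. This held for 11 of 11 Müller (median -0.37), 9 of 10 amacrine (-0.49), 8 of 10 bipolar (-0.42), 9 of 10 ganglion (-0.40) and 5 of 5 blood markers (-0.73). The direction was not particular to rods. In retina 11 of 11 Müller (median -0.15), 8 of 10 amacrine (-0.07) and 9 of 10 bipolar markers (-0.18) were lower in Rodko mice. So were 7 of 10 ganglion (-0.03) and 4 of 5 blood markers (-0.26), again none called. The Müller markers had summed scaled reads of 9435 to 11177 in Rodko rods and 11489 to 14549.6 in control rods. The part of these cells in the values above was not tested.

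The difference between the genotype effect in rods and that in retina was tested directly. No gene was called (0% of 25584), with 1128 genes at an unadjusted p under 0.05 and none called by edgeR. Pkm, the targeted gene, was not called either, at -0.54 (limma, unadjusted p = 9.07e-05, adjusted p = 0.978). A difference of that size could thus go uncalled. None of the 10 genes had an unadjusted p under 0.05. The values ran from -0.17 for Nfe2l2 to 0.23 for Cat.

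The other antioxidant genes were taken from a list of 80 genes in 8 groups, 79 of whose table entries could be tested between rods and retina. In control mice 30 were called higher in rods, 33 lower and 16 neither, with a median of -0.01, where 23.5% of all genes were called higher and 35.5% lower. In Rodko mice 34 were higher, 34 lower and 11 neither, with a median of 0.12, where 23.9% of all genes were higher and 35.1% lower. By total reads the counts were 15 higher and 43 lower in control mice and 14 higher and 44 lower in Rodko mice, where of all 25895 genes tested 2184 and 2198 were higher and 12706 and 12648 lower. Members of 1 group often went opposite ways.

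The genes of selenoprotein synthesis, which supply the machinery that puts selenocysteine into Gpx1, Gpx4 and Txnrd1, were called higher in rods in 6 of 7 cases in control mice (median 0.73) and 7 of 7 in Rodko mice (median 0.70), beside 23.5% and 23.9% of all genes. The difference of the remaining gene in control mice, Sepsecs, was 0.30 and not called. By total reads 3 and 2 of them were still called higher and none lower. Secisbp2, which binds the selenocysteine insertion element of these messages, averaged 867 ± 68.4 scaled reads in control rods and 419 ± 33.3 in control retina (SD, n = 3), a log2 difference of 1.05 (adjusted p = 1.74e-07).

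Of the 8 tested entries for genes that supply NADPH, 5 were called higher and 2 lower in both genotypes, on the TMM scale and by total reads alike. Under TMM 23.5% of all genes were called higher and 35.5% lower in control mice, and 23.9% and 35.1% in Rodko mice. The counts of all genes by total reads are given above. The lowest difference of the group was -1.79 in control and -1.36 in Rodko mice. The median was 0.90 in control and 0.92 in Rodko mice. Nadk2, the mitochondrial NAD kinase, averaged 4341 ± 294 scaled reads in control rods and 2128 ± 116 in control retina (log2 difference 1.03, adjusted p = 1.41e-08). Idh1, the cytosolic NADP-dependent isocitrate dehydrogenase, averaged 1641 ± 77.5 in Rodko rods and 726 ± 28.6 in Rodko retina (log2 difference 1.17, adjusted p = 6.05e-09).

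Of the glutathione transferases and glyoxalases, 10 of 17 were called lower and 3 higher in control rods (median -2.18), beside 35.5% and 23.5% of all genes. In Rodko rods 11 were called lower and 3 higher (median -1.55), beside 35.1% and 23.9%. Gstp1, a cytosolic transferase, was an exception at 3108 ± 350.3 scaled reads in control rods and 1430.4 ± 68.5 in control retina (log2 difference 1.11, adjusted p = 7.04e-07). So was Glo1, which detoxifies methylglyoxal with glutathione, at 7092 ± 44.3 in Rodko rods and 3301 ± 31.9 in Rodko retina (log2 difference 1.10, adjusted p = 1.00e-09). Mgst1, a membrane-bound transferase, averaged 22.0 ± 14.0 in control rods and 255 ± 154 in control retina (log2 difference -3.46, adjusted p = 4.54e-06).

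Among the other peroxidases, 3 of 9 tested were higher and 3 lower in control rods, and 5 higher and 3 lower in Rodko rods, while by total reads none was called higher. Under TMM 23.5% of all genes were called higher and 35.5% lower in control mice, and 23.9% and 35.1% in Rodko mice. Gpx8, a peroxidase of the endoplasmic reticulum, averaged 10.5 ± 3.74 scaled reads in control rods and 155 ± 32.6 in control retina (log2 difference -3.79, adjusted p = 5.10e-06). Gpx3, the secreted glutathione peroxidase, averaged 286 ± 137 and 3228 ± 1636 (log2 difference -3.47, adjusted p = 3.37e-07). Sod3, the extracellular superoxide dismutase, averaged 11.5 ± 12.6 in Rodko rods and 223 ± 90.7 in Rodko retina (log2 difference -4.58, adjusted p = 4.23e-06). Its Rodko rod libraries held only 3.02 to 26.0 scaled reads. In control mice Sod3 averaged 28.6 ± 12.6 in rods and 234 ± 103 in retina, a smaller log2 difference of -3.00. Summed pigment epithelium marker reads ranged from 2130.3 to 19361 in control retina and from 3778 to 11962 in Rodko retina. Gpx3 ranged from 1928 to 5064 in control retina and from 2759 to 3573 in Rodko retina. The part of those cells in the values of these genes was not tested.

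NRF2 regulators and other NRF2 targets were split, with 3 of 12 higher and 6 lower in control rods and 5 higher and 6 lower in Rodko rods (medians -0.01 and -0.02). So were the genes of glutathione synthesis, breakdown and cystine uptake, with 4 of 10 higher and 5 lower, then 4 and 6. Of the thioredoxin, glutaredoxin and methionine sulfoxide genes 5 of 14 were higher and 6 lower in control rods, and 4 and 5 in Rodko rods. By total reads, in either genotype, 1 was called higher and 6 lower in the first of these groups, 2 and 6 in the next, and 0 and 10 in the thioredoxin group. Of all genes, 23.5% were called higher and 35.5% lower in control mice under TMM, and 23.9% and 35.1% in Rodko mice. The counts of all genes by total reads are given above.

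**Figure D5:**
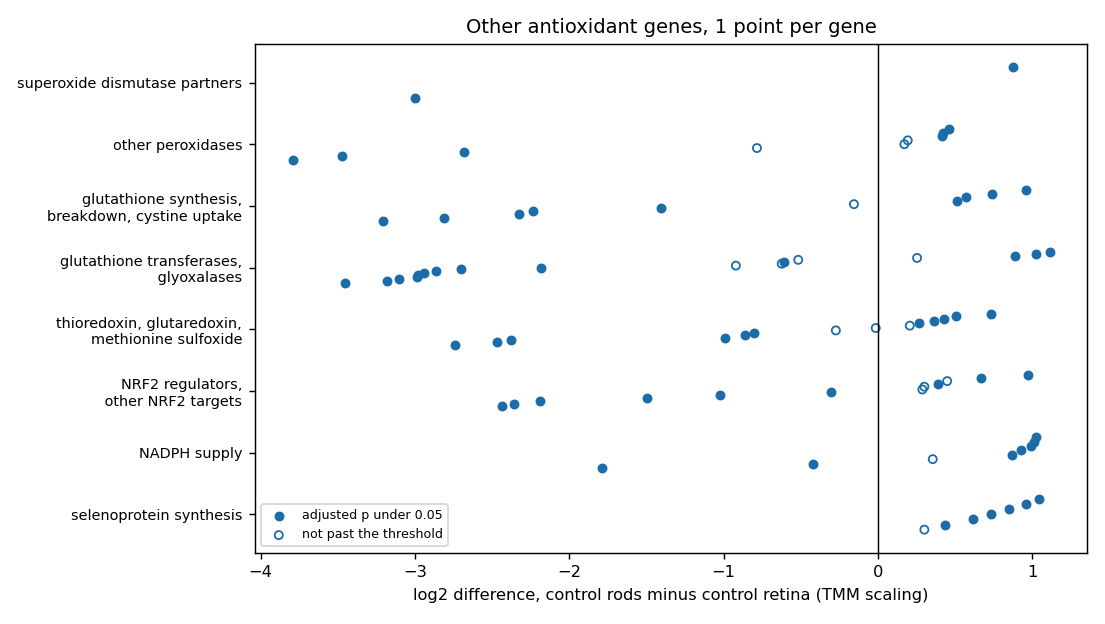
Log2 difference of control rods minus control retina under TMM scaling (x axis) for each other antioxidant gene, 1 point per table entry, by group (y axis). Filled points passed an adjusted p of 0.05. The 7 selenoprotein synthesis genes all lie right of 0, although their lowest difference is -0.25 by total reads, and the transferases spread from -3.46 to 1.11.

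By genotype none of the listed genes was called, of 77 tested in rods and 79 in retina. An unadjusted p under 0.05 was found for 3 in rods, all lower in Rodko (Gstm5, Sod3 and Msrb3), and for 5 in retina, of which 3 were lower (Gstm5, Gstp1 and Gstt1) and 2 higher (Nadk2 and Secisbp2). Over all genes 4.77% had such a p in rods and 4.18% in retina, beside 3.90% and 6.33% of the listed genes. These 8 results were singled out after their values were seen. Neither edgeR nor DESeq2 called any listed gene.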

How the data were processed

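Rod-TRAP and total retinal RNA of 12 libraries were grouped by the labels' genotype and tissue. The authors deposited a signal per gene, which is the reads over a DESeq2-type size factor of the library, estimated among the 6 libraries of its fraction. Per the submitters' processing notes, CASAVA 1.8.2, HISAT2, DESeq2, edgeR and GRCm39 were used. The counter, annotation and strand setting are not given in the sources used here. Dividing by the value of 1 read gave whole reads for 100.0% of positive values (tolerance 0.05), and these were used where counts were needed.

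Genotype was tested within a fraction by limma 3.58.1 with a variance trend on log2(value + 1), for genes with a mean of at least 1 in a genotype. Rods and retina were tested by limma on log2(TMM-scaled reads + 1) with 4 group means, TMM from edgeR 4.0.16. All tests were two-sided, with Benjamini-Hochberg adjustment over all genes and a threshold of 0.05. A fold change on the log2(value + 1) scale understates the change of low genes. Alternatives were edgeR, DESeq2 1.42.0, other scalings, pseudocounts and filters, a replicate block, and each library left out. Scripts were tested on simulated data.

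Rod and retina libraries of the same genotype and number deviated together from their group means (6 correlations, 0.145 to 0.344 over 16352 genes), so those numbers pair them. Exon lengths, overlaps and near-identical copies came from GENCODE vM21 (GRCm38), not the authors' build, so no coordinates were taken from it. The genes and lists were chosen with earlier results of these data known. All 10 genes are named, and of the other listed genes those called, or where more than 6 were called the 3 highest and 3 lowest differences among them. Sepsecs and the genes with an unadjusted p under 0.05 by genotype were named after their values were seen.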

Additional observations from a re-analysis of the deposited data

How the results depend on the processing

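No gene of the 10 was called by genotype, or for a genotype effect that differs between fractions, under any alternative. Their uncalled values changed sign in 14 of 150 cases in rods, 14 of 150 in retina and 28 of 200 for the difference. The count of all genes called in rods, 4, was 7 with DESeq2, 17 in 1 fit of all 12 libraries and 2 to 6 with a library left out. In retina the count of 1 was 0 with 10 reads in every library and 0 to 4 with a library left out. Control and Rodko libraries of the same number did not deviate together (correlations -0.227 to 0.071), so they share only a number, and with the replicate block the count was 8 in rods and 0 in retina. Between rods and retina the block changed no call but that of Sod1, called in both genotypes. With 10 reads in every library 9526 genes were called in control and 9651 in Rodko mice, of 12918 tested, because fewer genes were tested.

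Scaling mattered most. In control mice 6 genes were higher and 1 lower, against 2 and 3 by total reads and 1 and 5 on values scaled within each fraction. In Rodko mice 7 were higher and 1 lower, against 2 and 2, then 1 and 2. By total reads these genes turned from positive to negative in control mice: Gclc (-0.28), Sod1 (-0.31, not called on either scale), Sod2 (-0.063), Cat (-0.34) and Txnrd1 (-0.17). On values scaled within each fraction they were Gclc (-0.32), Sod1 (-0.36), Sod2 (-0.11), Cat (-0.39) and Txnrd1 (-0.22). In Rodko mice by total reads they were Gclc (-0.34), Nfe2l2 (-0.066), Sod2 (-0.052), Cat (-0.15) and Txnrd1 (-0.081), and on values scaled within each fraction -0.36, -0.084, -0.071, -0.17 and -0.10, and Sod1, not called on any of these scales, went to -0.32 and -0.33. These scalings put a different level at 0 for all genes, by construction. Gclc was not called with median-of-ratios (RLE) scaling over all 12 libraries (0.21 and 0.17), nor by edgeR in Rodko mice (0.21).

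With 1 pair left out, the Gclm to Gclc log2 ratio difference ranged from -0.98 to -0.88. The 3 libraries per group and, for Gpx1, the few reads limit the precision, and reads of Gpx4 and its pseudogenes were not separable.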
